A study of Mus musculus with 2 samples.

Results

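The unfolded protein response is the program by which a cell adjusts to misfolded protein in the endoplasmic reticulum (ER). The 10 genes described here are its sensors, transcription factors and best known targets, taken from the deposited gene table by their names out of 34745 genes. They fall into the IRE1 branch (Xbp1 and Ern1), the ATF6 branch (Atf6, Hspa5 and Hsp90b1) and the PERK branch (Eif2ak3, Atf4, Ddit3, Chac1 and Trib3). Xbp1 and Chac1 were selected on the difference between the same 2 libraries described here, so their ratios are given as a description and support nothing further.

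Total RNA of the gastrocnemius, a calf muscle of the mouse, was sequenced as 1 library from TECRLflox/flox mice (the control) and 1 library from TECRLscko mice. Both groups carry the conditional Tecrl allele. In TECRLscko mice Cre recombinase, expressed from the Pax7 locus (allele Pax7tm1(cre)Mrc), removes Tecrl from satellite cells, which repair muscle fibers. Whether Tecrl was also removed from other cells, muscle fibers among them, was not measured. The control is not stated to carry Cre. The labels state no age, sex, injury or time point, nor how many mice gave RNA to a library. Total counts were 19281017 for the control and 16946124 for TECRLscko. Tecrl itself had 3 and 4 counts, a TECRLscko to control ratio of 1.59 (exact 95% interval, 0.269 to 10.9), so its deletion could not be checked in whole muscle at this depth. Taken as a check of the tissue, 8 fiber markers summed to 134160 CPM (the count scaled to library size) in the control against 121116 CPM. Of these 8, 6 were below and 2 above the control. The only marker past 1.5-fold was Myh2, 1.63-fold higher (1.61 to 1.65). With 1 library per group no test across mice was possible and no p-value is given. The intervals cover counting error alone, and the differences are those of 2 libraries, not of 2 genotypes. In whole tissue, fewer cells of a type and less RNA per cell cannot be told apart.

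Sensors in the ER membrane start the response. IRE1, encoded by Ern1, is a kinase and RNase that cuts a short intron out of Xbp1 mRNA, and the spliced mRNA encodes the active XBP1 transcription factor, which drives genes of protein entry, folding and disposal. ATF6 is carried to the Golgi, where proteases free its transcription factor domain, and it drives chaperones such as Hspa5 (BiP) and Hsp90b1 (GRP94). PERK, encoded by Eif2ak3, phosphorylates the initiation factor eIF2alpha, which slows translation in general while ATF4 protein is made. ATF4 and its target CHOP, encoded by Ddit3, then drive genes of amino acid supply, Chac1 and Trib3. Skeletal muscle holds a specialised ER, the sarcoplasmic reticulum, whose main task is calcium storage.

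The sequence through which IRE1 acts on Xbp1 is shown because the deposited gene count cannot read it. The stretch is from an annotated Xbp1 transcript, Xbp1-201 of GENCODE M21 (GRCm38, chromosome 11, plus strand), with the 26-base intron at bases 815 to 840 of the transcript in capitals and 20 bases on either side.

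Xbp1 intron: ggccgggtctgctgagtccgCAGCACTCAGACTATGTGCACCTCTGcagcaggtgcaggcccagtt

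The cut sites follow the pattern CNGCNG, cut in its middle. The spacing of 26 bases between 2 such patterns also occurred once more in the same transcript, at bases 458 to 483, and the printed stretch is the one that stood in all 3 annotated coding models of Xbp1. A read count per gene adds spliced and unspliced Xbp1 mRNA, so IRE1 activity was not measured here.

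The promoters of Xbp1, Chac1 and Hspa5 are shown since they are the most different pair of genes and a classic ATF6 target whose ratio was near 1. They are RefSeq windows of GRCm38.p6 from 250 bases before to 50 bases after the annotated start, and each is printed 5′ to 3′ on the gene's strand, which is plus for all 3. Xbp1 lies at chr11:5520391-5520690, Chac1 at chr2:119350992-119351291 and Hspa5 at chr2:34771840-34772139. Capitals mark matches to the motifs searched.

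Xbp1 promoter: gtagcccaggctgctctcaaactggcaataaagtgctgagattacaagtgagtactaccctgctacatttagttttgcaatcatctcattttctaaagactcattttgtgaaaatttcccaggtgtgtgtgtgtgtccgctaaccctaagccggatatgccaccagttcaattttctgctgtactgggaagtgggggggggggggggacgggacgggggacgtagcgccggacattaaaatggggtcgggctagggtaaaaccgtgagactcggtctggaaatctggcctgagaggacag

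Chac1 promoter: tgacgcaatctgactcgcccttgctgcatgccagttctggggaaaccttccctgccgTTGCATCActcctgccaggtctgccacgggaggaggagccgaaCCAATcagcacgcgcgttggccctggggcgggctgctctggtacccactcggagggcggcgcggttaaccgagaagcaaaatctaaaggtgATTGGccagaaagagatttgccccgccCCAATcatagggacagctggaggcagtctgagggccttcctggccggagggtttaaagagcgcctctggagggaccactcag

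Hspa5 promoter: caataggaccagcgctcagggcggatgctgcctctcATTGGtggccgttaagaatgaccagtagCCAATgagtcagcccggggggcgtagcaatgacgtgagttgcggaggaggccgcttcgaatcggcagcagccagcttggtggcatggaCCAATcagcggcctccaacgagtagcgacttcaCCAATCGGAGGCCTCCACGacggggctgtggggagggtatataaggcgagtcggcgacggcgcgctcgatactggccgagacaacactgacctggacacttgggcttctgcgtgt

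Of the 10 genes 9 had a promoter in the table. The 5 motifs, searched on both strands, were the ER stress element ERSE (CCAAT, any 9 bases, CCACG), ERSE-II (ATTGG, any 1 base, CCACG), the unfolded protein response element UPRE (TGACGTGG), the ATF4 composite element CARE (TGATGNAA) and the CCAAT box alone (CCAAT), which is also the first part of every ERSE match and, on the other strand, of every ERSE-II match. Only exact matches to these letters were counted, so variants of a motif were not found. The Hspa5 promoter held 1 ERSE match beginning 65 bases before the start. The Hsp90b1 promoter held 2, beginning 212 and 107 bases before its start, the second on the opposite strand. These 3 sites are printed with the fixed letters in capitals.

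Hspa5 ERSE: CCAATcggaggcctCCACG

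Hsp90b1 first ERSE: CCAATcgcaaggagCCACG

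Hsp90b1 second ERSE: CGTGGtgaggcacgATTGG

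An ERSE stood in 39 of 32851 promoters of the same length, a share of 0.119%. CARE stood in the Chac1 promoter, 193 bases before the start on the opposite strand (TTGCATCA), and in the Trib3 promoter at base 15 after the start, against 3.97% of all promoters. The Xbp1 window held no exact match to any of the 5 motifs. No ERSE-II or UPRE letters stood in any of the 9 windows, where shares over all promoters were 0.0365% and 0.676%. CCAAT boxes stood in 6 of the 9 promoters, against 37.4% of all. The median log2 ratio of TECRLscko over control was 0.02 over 16 measured genes with an ERSE and -0.03 over 256 genes with CARE, beside -0.02 over all 12559 genes compared.

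Of the 10 genes, Chac1 was higher and Xbp1 lower in the TECRLscko library by more than 1.5-fold, and the other 8 stood within 1.5-fold of the control. All 10 reached a mean of 1 CPM, the level from which genes were compared. CPM here includes TMM scaling, and the log2 ratio is taken on CPM plus 0.5. Over all 12559 genes compared, 9.24% were higher and 3.88% were lower by 1.5-fold or more, and since Xbp1 and Chac1 were chosen on this contrast nothing is read from the count of 1 in each direction. The split over all genes, 1161 higher and 487 lower, was 968 and 658 with total-count scaling. The median log2 ratio of the 10 genes was 0.11, with 6 above and 4 below the control. Over all genes the ratio also moved with sequence properties: its median was 0.36 in the 1253 genes with the lowest GC content and -0.17 in the 1253 with the highest, and by transcript length it was -0.17 over the 1253 shortest and 0.33 over the 1253 longest. Values after a correction for both are therefore given beside the ratios they move.

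**Figure D1:**
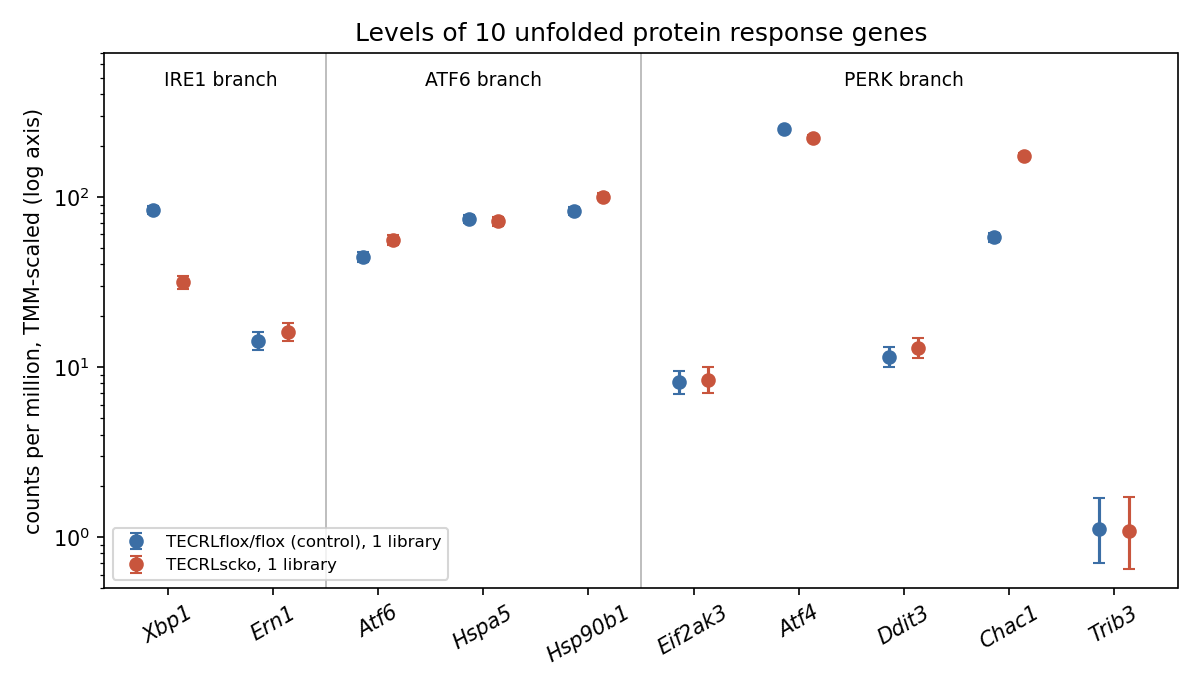
Level of each of the 10 genes in CPM (TMM-scaled, log axis) in the control library (blue) and the TECRLscko library (red), by branch. Points are single libraries and bars are exact 95% counting intervals; the bars of Xbp1 and Chac1 lie far apart, at 83.6 against 31.4 CPM and 57.8 against 173 CPM.

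In the IRE1 branch, Xbp1 (ENSMUSG00000020484, chromosome 11, 5520659 to 5525893, plus strand, protein-coding) had 1651 counts in the control and 519 in TECRLscko. Its level of 31.4 CPM against 83.6 CPM was 2.67-fold lower (exact 95% interval, 2.42 to 2.95). It was the 32nd lowest log2 ratio of the genes compared, at -1.40 (-1.19 after the length and GC correction), and no other counted gene model overlapped it. Ern1 (ENSMUSG00000020715, chromosome 11, 106394650 to 106487852, minus strand), which encodes the IRE1 sensor that splices Xbp1, had 280 and 267 counts. Its level was 14.2 CPM in the control and 16.1 CPM in TECRLscko, a ratio of 1.14 whose interval, 0.958 to 1.35, includes 1.

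Fat cell markers were lower in the same library as Xbp1. Of 6 adipocyte markers 5 were measured, all 5 below the control and 4 by at least 1.5-fold. The summed level of the 6 was 41.6 CPM in the control against 19.03 CPM, of which Cfd alone gave 27.9 CPM and 12.5 CPM. Macrophage markers summed to 228 CPM and 185 CPM, with 6 of 7 below the control and 1 by at least 1.5-fold. Plasma cells are the cells best known for a high Xbp1 level. Of their 9 markers 4 passed 1 CPM, of which 1 was lower by at least 1.5-fold: Prdm1, with 32 and 12 counts, was 2.24-fold lower (1.12 to 4.77). Igkc, under 1 CPM, had 11 and 21 counts, Derl3 had 0 counts in both libraries and Jchain had 4 and 6. The summed level was 89.7 CPM against 88.9 CPM, of which Ighm alone gave 79.2 CPM and 78.05 CPM. Satellite cells express Pax7, the locus that carries Cre. Among their 5 markers 3 were below the control, 2 of these past 1.5-fold, and the median log2 ratio was -0.42. Calcr had 56 and 26 counts, Chrdl2 35 and 16, and Myf5 64 and 38. Above the control stood Pax7, with 58 and 76 counts, and Vcam1, the most abundant, at 9.12 CPM and 9.60 CPM. The plain ratio of Pax7 was 1.56 (1.10 to 2.24), but its log2 ratio of 0.57 on CPM plus 0.5 kept it out of the count. The summed level of the 5 markers was 19.9 CPM in the control against 19.03 CPM. Fibroblast markers summed to 1927 CPM and 1804 CPM and endothelial markers to 423 CPM and 416 CPM, with 0 of 6 and 0 of 5 past 1.5-fold. Over all genes compared 9.24% were higher and 3.88% lower by 1.5-fold or more. With so few markers per cell type the counts are not read as a result, and the part of these cell types in the Xbp1 level was not tested.

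In the ATF6 branch no gene reached 1.5-fold. Atf6 (ENSMUSG00000026663, chromosome 1, 170704674 to 170867771, minus strand), the sensor, had 873 and 923 counts, 44.2 CPM in the control against 55.8 CPM. The ratio was 1.26 (1.15 to 1.38), above the control beyond counting error. Hsp90b1 (ENSMUSG00000020048, chromosome 10, 86690209 to 86705509, minus strand), the ER member of the HSP90 chaperones, had 1628 and 1655 counts, 82.5 CPM and 99.98 CPM. Its ratio was 1.21 (1.13 to 1.299), also above the control beyond counting error, and with its overlapping gene models summed the log2 ratio was 0.24 in place of 0.28. Hspa5 (ENSMUSG00000026864, chromosome 2, 34771970 to 34777547, plus strand), the ER chaperone that holds the sensors inactive, had 1458 and 1186 counts, 73.9 CPM and 71.6 CPM. Its ratio was 0.970 (0.898 to 1.05). Hspa5 and Hsp90b1 both hold an ERSE, and the counting intervals of their ratios do not overlap. After the length and GC correction the log2 ratio of Atf6 was 0.07 in place of 0.33 and that of Hsp90b1 was 0.13 in place of 0.28.

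In the PERK branch the sensor and both transcription factors stood within 1.5-fold of the control. Eif2ak3 (ENSMUSG00000031668, chromosome 6, 70844515 to 70905245, plus strand), the PERK sensor, had 160 and 139 counts, 8.11 CPM in the control against 8.40 CPM, a ratio of 1.04 (0.819 to 1.31). Atf4 (ENSMUSG00000042406, chromosome 15, 80255184 to 80257540, plus strand), the transcription factor made when eIF2alpha is phosphorylated, had 4962 and 3682 counts, 251 CPM and 222 CPM. Its ratio was 0.885 (0.848 to 0.923), lower beyond counting error, but its log2 ratio of -0.18 was 0.07 after the length and GC correction, so its direction depends on that step. ATF4 is controlled mainly at translation, which mRNA counts do not show. Ddit3 (ENSMUSG00000025408, chromosome 10, 127290774 to 127296288, plus strand), which encodes CHOP, had 226 and 215 counts, 11.4 CPM and 12.99 CPM, a ratio of 1.13 (0.937 to 1.37). Ddit3 overlaps the methionyl-tRNA synthetase gene Mars on the opposite strand by 68 bases, and the log2 ratio was 0.17 for Ddit3 alone and -0.07 with its overlapping models summed. That sum is mostly Mars, with 1152 and 889 counts, so it does not inform the direction of Ddit3.

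Chac1 (ENSMUSG00000027313, chromosome 2, 119351229 to 119354381, plus strand), a glutathione-degrading enzyme and target of ATF4, had 1141 counts in the control and 2870 in TECRLscko. At 173 CPM against 57.8 CPM it was 2.999-fold higher (2.80 to 3.21). Its log2 ratio of 1.58, or 1.85 after the correction, was the 59th highest of the genes compared, and no other counted gene model overlapped it. Trib3 (ENSMUSG00000032715, chromosome 2, 152337422 to 152344032, minus strand), a pseudokinase and target of CHOP, had 22 and 18 counts, 1.11 CPM and 1.09 CPM. Its ratio was 0.976, and at this depth no difference inside its interval of 0.493 to 1.91 was detectable. Tendon markers stood above the control in the same library as Chac1, all 6 of them, and 4 by at least 1.5-fold, beside 9.24% of all genes. The 4 were Tnmd with 37 and 62 counts, Kera with 54 and 95, Cilp2 with 61 and 109, and Fmod with 913 and 1190. The intervals of Scx, at 1.02 (0.670 to 1.53), and Thbs4, at 1.08 (0.982 to 1.18), include 1. With so few markers the count is not read as a result. The summed level of the 6 tendon markers was 108 CPM in the control against 146 CPM, and their part in the Chac1 level was not tested.

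**Figure D2:**
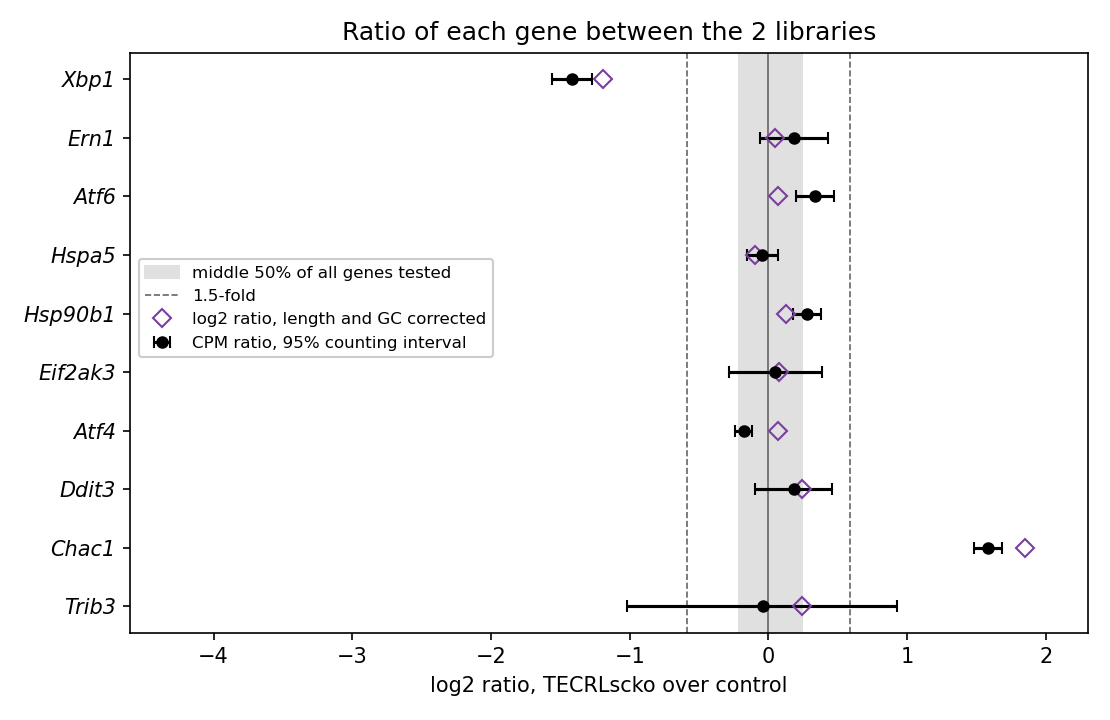
Log2 of the plain CPM ratio of TECRLscko over control for each gene, with its exact 95% counting interval (black). Open diamonds are the log2 ratio on CPM plus 0.5 after correction for transcript length and GC content. The grey band is the middle 50% of all genes compared, on CPM plus 0.5, -0.21 to 0.24. Dashed lines are 1.5-fold. The points of Xbp1 and Chac1 lie outside 1.5-fold before and after the correction, and those of the other 8 genes lie inside. The interval of Trib3 reaches past 1.5-fold on both sides.

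**Figure D3:**
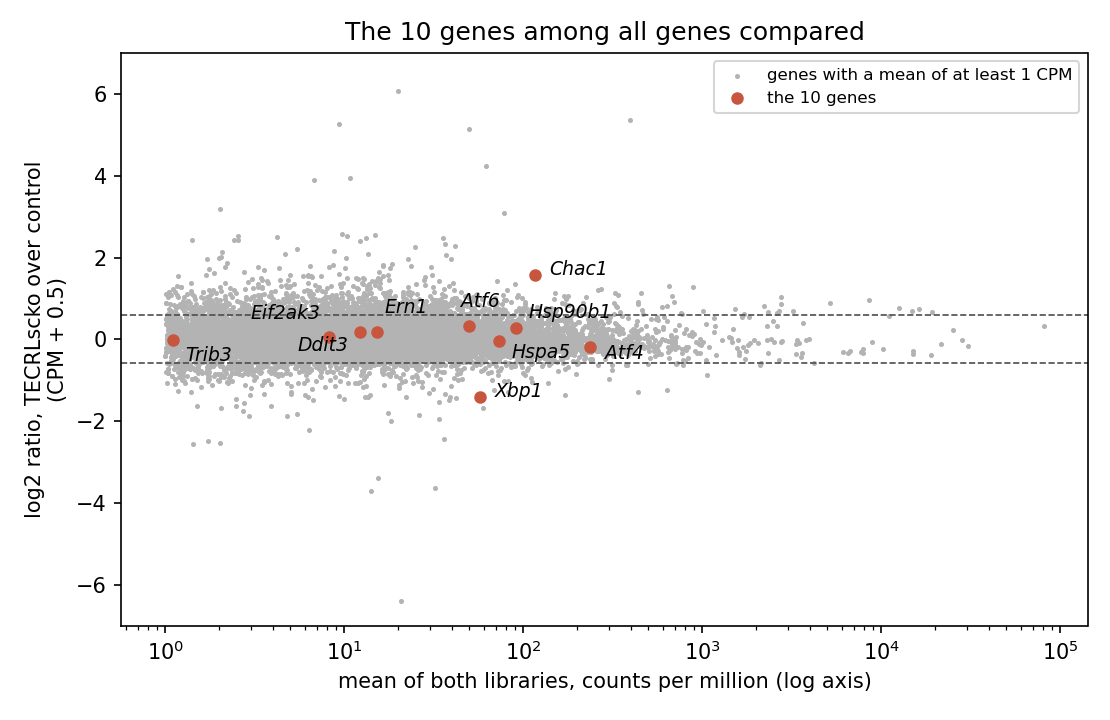
Log2 ratio of TECRLscko over control (CPM plus 0.5) against the mean level in CPM (log axis) for the 12559 genes compared, with the 10 genes in red and dashed lines at 1.5-fold. Xbp1 at -1.40 and Chac1 at 1.58 lie at the edges of the cloud at their level, and the other 8 lie within it.

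The order of the genes by level was compared with the deposited FPKM, which divides counts by gene length and library total. In the control library Atf4 was the highest at 149 FPKM, followed by Chac1 at 36.1, Xbp1 at 19.02, Hsp90b1 at 15.6 and Hspa5 at 10.9 FPKM. Ddit3 at 5.09 FPKM (4.45 to 5.803) and Atf6 at 4.85 FPKM (4.54 to 5.19) did not differ beyond counting error. Ern1 at 1.37, Eif2ak3 at 1.04 and Trib3 at 0.360 FPKM were lowest. In the TECRLscko library Atf4 at 126 FPKM and Chac1 at 103 FPKM were followed by Hsp90b1 at 18.1, Hspa5 at 10.07 and Xbp1 at 6.80 FPKM, so Xbp1 went from the 3rd to the 5th place. The next neighbours again did not differ beyond counting error, with Atf6 at 5.84 FPKM (5.47 to 6.23) and Ddit3 at 5.51 FPKM (4.801 to 6.30).

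Levels of Xbp1 and Chac1 were also set against another of the 10 genes in the same library. The FPKM of Xbp1 was 1.75 times that of Hspa5 in the control (1.63 to 1.88). In the TECRLscko library it was 0.676 times that of Hspa5 (0.608 to 0.750). The FPKM of Chac1 was 0.242 times that of Atf4 in the control (0.227 to 0.258). In the TECRLscko library it was 0.821 times that of Atf4 (0.782 to 0.862). Xbp1 and Chac1 were selected on this contrast, so these ratios are a description too. The order depends in part on the gene lengths behind the FPKM, which for 8 of the 10 genes were over 1% longer than their merged exons in GENCODE M21. With levels per kilobase of merged GENCODE exons the places of Xbp1 were the same, while Chac1 at 106 stood above Atf4 at 94.3 CPM per kilobase in the TECRLscko library. The deposited coordinates of 9 of the 10 genes are those of GENCODE M21, and Atf4 is the exception.

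The other genes of the pathway stood mostly within 1.5-fold of the control. In all, 6 lists of 129 genes were compared, of which 122 passed 1 CPM, 4 of them higher and 7 lower by 1.5-fold or more. These are 3.28% and 5.74%, beside 9.24% and 3.88% over all genes, and the median log2 ratio was -0.07 beside -0.02. After the length and GC correction 3 were higher and 3 lower, with a median of 0.0032. Over all 12524 genes so corrected 672 were higher and 396 lower, with a median of 0.02. The 7 genes under 1 CPM were Ern2, Bhlha15, Derl3 and Ggt1 with 0 counts in both libraries, Slc7a11 with 2 and 1 counts, Fgf21 with 1 and 0 counts, and Gdf15 with 3 and 4 counts.

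**Figure D4:**
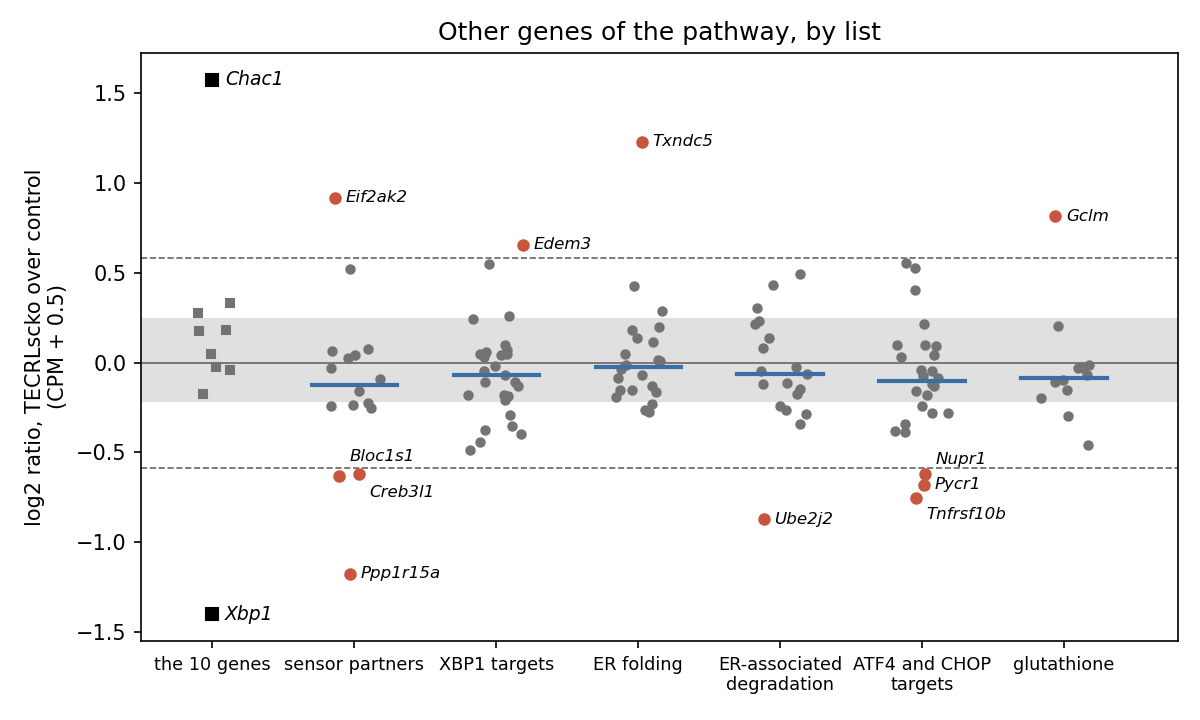
Log2 ratio of TECRLscko over control (CPM plus 0.5) of the 10 genes (squares) and of the 122 other measured genes by list (circles, spread sideways at random), with list medians in blue, the middle 50% of all genes compared in grey and 1.5-fold dashed. Most genes lie inside 1.5-fold, and the 11 listed genes outside it are named in red.

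The 28 listed targets of XBP1, genes of protein entry, glycan trimming and vesicle coats, had a median log2 ratio near that of all genes. Of 27 measured, 0 were at least 1.5-fold lower and 1 was at least 1.5-fold higher, shares of 0% and 3.70% beside 3.88% and 9.24% over all genes. With so few genes these counts are too near the background to be read as a result about the list. There were 16 below and 11 above the control, and the median was -0.07 beside -0.02 over all genes. Edem3, which marks misfolded glycoproteins for disposal, had 28.7 CPM in the control against 45.5 CPM, 1.59-fold higher (1.42 to 1.77), and its log2 ratio of 0.66 was 0.35 after the length and GC correction. Dnajb9, an ER co-chaperone that is the textbook XBP1 target, stood at 51.7 and 55.5 CPM, a ratio of 1.07 (0.981 to 1.17). The most abundant of the list per length were Srpr, the signal recognition particle receptor, at 120 FPKM in the control and 88.6 FPKM in the TECRLscko library (log2 ratio of -0.37), and the translocon-associated Ssr3, at 57.8 and 51.1 FPKM (-0.11).

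Among 22 ER folding genes, all measured, 1 was at least 1.5-fold higher and 0 lower, shares of 4.55% and 0% beside 9.24% and 3.88% over all genes. The median was -0.02 (0.04 after the length and GC correction, beside 0.02 over all genes). The protein disulfide isomerase Txndc5 had 423 and 843 counts, 21.4 CPM in the control against 50.9 CPM, 2.38-fold higher (2.11 to 2.68). The most abundant per length were P4hb, the main protein disulfide isomerase, at 55.5 and 43.8 FPKM (log2 ratio of -0.27), the calcium-binding chaperone Calr at 40.5 and 34.5 FPKM (-0.16) and the cyclophilin Ppib at 38.8 and 33.2 FPKM (-0.16). The other 21 lay within 1.5-fold.

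Of 19 measured genes of ER-associated degradation, which returns misfolded protein to the cytosol, 0 were at least 1.5-fold higher and 1 was lower, with a median of -0.06. The shares were 0% and 5.26%, beside 9.24% and 3.88% over all genes. Ube2j2, an ER-anchored ubiquitin-conjugating enzyme, had 38.0 CPM in the control against 20.5 CPM, 1.85-fold lower (1.63 to 2.11). Vcp, the ATPase that extracts the substrates, stood at 66.1 and 53.4 FPKM (log2 ratio of -0.24), and Herpud1, a stress-induced partner of the ligase complex, at 47.5 and 37.7 FPKM (-0.26).

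Of 16 measured partners of the sensors 1 was at least 1.5-fold higher and 3 were lower, with a median of -0.12. The shares were 6.25% and 18.75%, beside 9.24% and 3.88% over all genes. With so few genes they are not read as a result about the list. Ppp1r15a (GADD34), the phosphatase subunit that reverses eIF2alpha phosphorylation and a target of ATF4 and CHOP, had 751 and 274 counts, 38.05 CPM in the control against 16.6 CPM. It was 2.299-fold lower (1.999 to 2.65). Bloc1s1, an mRNA that IRE1 also cuts, had 44.3 and 28.5 CPM, 1.56-fold lower (1.39 to 1.74), and came to -0.54 from -0.63 when summed with the overlapping Rdh5. Creb3l1, an ATF6-like factor of collagen-secreting cells, had 9.27 and 5.86 CPM, 1.58-fold lower (1.23 to 2.05). Eif2ak2 (PKR), an eIF2alpha kinase that responds to double-stranded RNA, had 61 and 104 counts, 2.03-fold higher (1.47 to 2.84). Rtcb, the ligase that joins the cut Xbp1 mRNA, stood at 23.8 and 19.4 FPKM (log2 ratio of -0.23). Eif2s1, which encodes eIF2alpha, stood at 14.2 FPKM in both libraries, with a log2 ratio of 0.07 on TMM-scaled CPM. After the length and GC correction Ppp1r15a (-0.97) and Eif2ak2 (0.76) were still past 1.5-fold, and Bloc1s1 (-0.37) and Creb3l1 (-0.38) were not.

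Of 26 measured targets of ATF4 and CHOP, genes of amino acid supply and of cell death, 0 were at least 1.5-fold higher and 3 were lower. There were 17 below and 9 above the control, with a median of -0.10. The shares past 1.5-fold were 0% and 11.5%, beside 9.24% and 3.88% over all genes. With so few genes they are not read as a result about the list. Chac1 itself, 2.999-fold higher, is not counted among them. Ppp1r15a, named above as a target of ATF4 and CHOP, was 2.299-fold lower. It is counted with the partners of the sensors and is not among the 3. The 3 were the death receptor Tnfrsf10b with 55 and 24 counts (1.92-fold lower, 1.17 to 3.25), the proline synthesis enzyme Pycr1 with 113 and 56 counts (1.69-fold, 1.22 to 2.38) and the stress-induced Nupr1 with 278 and 149 counts (1.56-fold, 1.28 to 1.92). Ddit4, an inhibitor of mTORC1, stood at 69.4 and 64.2 FPKM (log2 ratio of -0.04), the transcription factor Cebpb at 52.9 and 41.5 FPKM (-0.28) and the translation repressor Eif4ebp1 at 43.4 and 38.02 FPKM (-0.12). After the length and GC correction the list's median was 0.08, above the control, beside 0.02 over all genes. Tnfrsf10b (-0.67) and Atf3 (0.76), the latter named after its values were seen, were then past 1.5-fold.

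Glutathione is the substrate of the Chac1 enzyme. Of 12 measured genes of its synthesis, recycling and use, 1 was at least 1.5-fold higher and 0 lower, shares of 8.33% and 0% beside 9.24% and 3.88% over all genes. There were 10 below the control, and the median was -0.08 (0.04 after the correction, beside 0.02 over all genes). Gclm, the modifier subunit of the enzyme that starts glutathione synthesis, had 331 and 495 counts, 16.8 CPM in the control against 29.9 CPM, 1.78-fold higher (1.55 to 2.06), and its log2 ratio of 0.82 was 0.50 after the correction. The peroxidases Gpx3 at 83.04 and 57.5 FPKM (log2 ratio of -0.46), Gpx4 at 37.5 and 29.1 FPKM (-0.30) and Gpx1 at 21.5 and 18.4 FPKM (-0.15) were the most abundant per length.

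Among the listed genes averaging 5 CPM or more, the 3 whose log2 ratio was closest to that of Xbp1 were Ppp1r15a at -1.18, Ube2j2 at -0.87 and Bloc1s1 at -0.63. The 3 closest to Chac1 were Txndc5 at 1.23, Gclm at 0.82 and Edem3 at 0.66. Likeness here is the distance of 1 log2 ratio over 2 libraries.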

How the data were processed

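RNA was sequenced from 2 libraries, 1 per group. Per the labels' protocols, total RNA was made into libraries with a VAHTS Universal V6 kit for Illumina sequencing. The submitters' processing notes list HISAT2 2.0.4, StringTie 1.3.0, CASAVA and GRCm38, with no role given. The read counter, the use of strand and the annotation version were not given in the sources used here, so overlapping genes may share reads. Per the file headers, the deposited table holds whole-number counts without normalization, and FPKM values. The deposited FPKM equal the count divided by a gene length, the same in both libraries within 1% for 100% of 13810 genes with counts in both and at least 10 in one, and by the library total.

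Counts were scaled with TMM (edgeR 4.0.16, R 4.3.3), with factors of 1.02 (control) and 0.977 (TECRLscko). The log2 ratio uses CPM plus 0.5, which understates differences of low genes, and folds are plain CPM ratios. Genes averaging 1 CPM or more were compared and, on the log2 ratio, counted from 1.5-fold. Ratios have exact 95% Clopper-Pearson intervals conditional on both counts, and levels have exact Poisson intervals. Sequencing reads are not independent molecules, so they cover counting error only. The length and GC correction is an additive lowess (statsmodels 0.14.6, span 0.3) on the longest GENCODE M21 transcript, for 12524 genes. The ratios and intervals were tested on simulated counts. The genes and lists were chosen with earlier results of these data known. Genes are named by rule: the 10 genes, and per list up to 5 genes past 1.5-fold in each direction and the 3 highest by FPKM, besides the 3 closest to Xbp1 and to Chac1. Of the genes so named, 1 is not reported here. The alternatives are named with their effect in the closing section.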

Additional observations from a re-analysis of the deposited data

How the results depend on the processing

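All alternatives were planned. No paired analysis was possible because there was 1 library a group, and leaving out a replicate was not possible either. Chac1 and Xbp1 were the 1 gene higher and the 1 gene lower of the 10 under all alternatives run (total-count scaling, DESeq2 1.42.0 factors, scaling without mitochondrial and hemoglobin genes, FPKM, pseudocounts of 0.1 and 1, no filter, a mean of at least 5 CPM, 2-fold, the length and GC correction, summed overlapping models), with 9 of the 10 compared with FPKM, filtered at a mean of 1 FPKM, and at 5 CPM. The log2 ratio of Xbp1 lay between -1.47 and -1.19 and that of Chac1 between 1.504 and 1.85; values beyond their counting intervals were -1.19 and 1.85, both after the length and GC correction. The 4 higher and 7 lower of the other pathway genes became 2 and 4 with FPKM (102 genes compared), 1 and 1 at 2-fold, and 3 and 3 after the correction. Over all genes, 1161 higher became 392 with FPKM, 286 at 2-fold and 672 after the correction, and 487 lower became 753 with no filter (18123 genes with any count), 276 at 5 CPM (9700 genes) and 100 at 2-fold. A stricter fold or another filter counts other numbers of genes by construction; otherwise the cause was not tested. Total-count scaling shifts log2 ratios by -0.07. Directions of Atf4, Eif2ak3 and Trib3 turned in at least 1 alternative, with log2 ratios from -0.24 to 0.07, -0.02 to 0.08 and -0.07 to 0.24. Ddit3 lay between 0.10 and 0.24, except at -0.07 in the sum with its overlapping models, which is mostly Mars. The median log2 ratio of the 122 pathway genes lay between -0.14 and 0.0032. The medians of ER folding, ATF4 and CHOP target and glutathione genes turned from below to above the control after the correction, to 0.0405, 0.0797 and 0.0428. The median over all genes made the same turn, from -0.016 to 0.0203. That of the sensor partners was -0.24 with FPKM (14 genes). Depth limits Trib3, Eif2ak2 and Tnfrsf10b.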
